A study of Homo sapiens with 6 samples.

Results

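Transcripts of 7 genes that encode hormones, a receptor and effector proteins of the cellular stress response were followed on all of their probe sets: GDF15, FGF21, ADM2, STC2, VLDLR, NUPR1 and CHAC1. They were taken by name as known targets of the stress transcription factors ATF4 or CHOP. Earlier results of these data were known when the genes were chosen. All probe sets of the platform table that name exactly 1 of these symbols were used, 15 of the 44988 single-symbol probe sets, which stand for 7 of 18132 genes. Total RNA came from cells labelled HCT-116, an established human colorectal carcinoma line, grown in RPMI 1640 with 10% FBS and described in the labels as high in Aurora-A and PLK-1. One group, 3 Affymetrix arrays, received the solvent DMSO, and the other, also 3 arrays, received AAPK, a code name for a dual inhibitor of Aurora A and PLK-1 per the series title. Every sample carries the same treatment entry, a drug dose of 10 µM for 48 h, and that dose is read here as the dose of AAPK. The comparison asks how AAPK changes gene expression.

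ATF4 is translated when stress kinases phosphorylate the initiation factor eIF2, as in amino acid shortage or endoplasmic reticulum stress, and it induces CHOP, which is encoded by DDIT3. Their targets include enzymes and transporters that restore amino acids, and also proteins that carry the signal out of the cell or change its fate. GDF15 and FGF21 act as circulating stress hormones, whereas CHAC1 degrades glutathione inside the cell and NUPR1 works with chromatin in the nucleus.

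The quartiles of log2 signal were nearly equal on the 6 arrays, with medians of 6.46 to 6.50, and Pearson correlations between arrays were 0.9976 or higher inside each group and 0.9954 or lower across groups. Markers of colon epithelium did not all bear out the label. Apart from KRT8, the markers named here were chosen after their values were seen. KRT8 and KRT18, keratins of simple epithelia, lay at the 99.2 and 99.5 percentile of gene signal, and CLDN4 at the 84.9 percentile. In all, 3 of 10 such markers were brighter than the median gene. So were 0 of 9 fibroblast, 5 of 8 endothelial and 3 of 7 blood cell markers. By definition as many genes lie above the median gene as below it, and these counts were not tested. EPCAM, a surface protein for which HCT-116 is known, ran from 3.20 to 3.52 on its 3 probe sets over the 6 arrays and lay at the 0.866 percentile, and CDH1, E-cadherin, reached 5.15 at most. The identity of the cells was not tested further, and their name is given as labelled. EPCAM averaged 3.45 in DMSO and 3.39 in AAPK, and CDH1 5.11 in both. Of the 10 markers 1 was called, KRT8, higher by 0.17 (limma adjusted p = 0.0402), a call lost without DMSO replicate 1, 2 or 3 or AAPK replicate 1 or 2, with the replicate block (adjusted p = 0.069), when its probe sets were averaged (0.0516) and when the most variable one stood for the gene (0.0549). With limma, 0 of 9 fibroblast, 0 of 8 endothelial and 0 of 7 blood cell markers were called (0, 1 and 1 at an unadjusted p under 0.05). Their summed linear signal was 577 to 619 in DMSO and 563 to 602 in AAPK for fibroblasts, 1142 to 1163 and 1086 to 1145 for endothelium, and 836 to 927 and 824 to 879 for blood cells. For the epithelial markers the sum was 9797 to 10090 in DMSO and 10400 to 11030 in AAPK.

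The stress hormones and effectors fell with AAPK. On the brightest probe set of each gene, 6 of 7 genes were called lower and 0 higher (limma, adjusted p below 0.05 over all genes), against 7.26% of all 18132 genes called lower and 8.11% called higher; the gene not called was ADM2. Over probe sets, 12 of 15 were called lower, against 5.82% of all 44988, and all 15 had a log2 difference below 0. The 3 AAPK arrays lay wholly below the 3 DMSO arrays on 13 of the 15 probe sets, against 15.2% of all probe sets. The median log2 difference, AAPK minus DMSO, was -0.66 over the 15 probe sets and -0.01 over all probe sets. Among the probe sets called, the sizes ran from 2.45-fold lower for STC2 to 1.15-fold lower for VLDLR. The array reads labelled RNA from whole cultures, so fewer cells of a kind and less transcript per cell cannot be told apart.

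**Figure D1:**
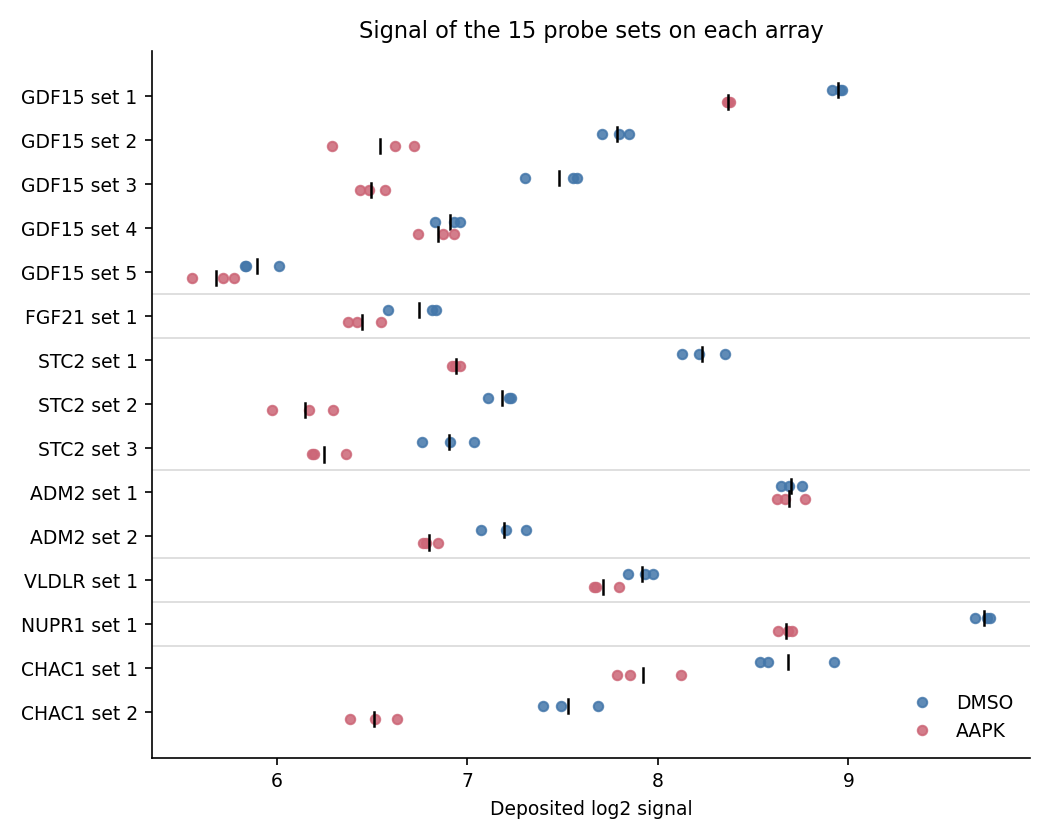
Deposited log2 signal (x axis) of each of the 15 probe sets (rows, numbered within a gene from the brightest to the dimmest) on 3 DMSO and 3 AAPK arrays; points are arrays and black bars are group means. The groups overlap on the fourth GDF15 and the first ADM2 probe set and on no other, and the gap between groups is widest for the first STC2 probe set, at 1.17.

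The promoters of 6 of the 7 genes were in the RefSeq promoter table (build GRCh38.p14), and the 250 bases before the transcription start were searched on both strands for TGATGNAA, the core of the C/EBP-ATF response element that ATF4 dimers bind, and for TGACGTNA, a sequence like the cyclic AMP response element. The promoters of CHAC1 and FGF21 each held TGATGNAA once, against 3.14% of all 35116 promoters of the table, and in both cases on the reverse strand with the same letters, TGATGCAA. Both stretches are shown because they share this exact site. The log2 differences on the brightest probe set, -0.76 for CHAC1 and -0.30 for FGF21, were not tested against each other. Capitals mark the match, which reads TTGCATCA on the strand shown.
CHAC1, chr15:40953221-40953470, plus strand: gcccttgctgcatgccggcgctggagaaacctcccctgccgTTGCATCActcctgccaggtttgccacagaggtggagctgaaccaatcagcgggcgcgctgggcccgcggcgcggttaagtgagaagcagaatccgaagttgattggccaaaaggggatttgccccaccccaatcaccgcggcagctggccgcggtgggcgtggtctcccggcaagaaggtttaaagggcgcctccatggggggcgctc
FGF21, chr19:48755274-48755523, plus strand: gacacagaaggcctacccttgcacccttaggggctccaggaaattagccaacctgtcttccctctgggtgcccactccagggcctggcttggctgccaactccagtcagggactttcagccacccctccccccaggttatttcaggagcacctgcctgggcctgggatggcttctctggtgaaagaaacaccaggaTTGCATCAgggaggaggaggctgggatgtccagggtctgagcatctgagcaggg
The match ends 202 bases before the start of CHAC1 and 47 bases before that of FGF21. These letters were not found in the same window of GDF15, ADM2, STC2 and VLDLR, and TGACGTNA was in 0 of the 6 promoters and in 2.67% of all promoters. In the same window TGATGNAA was held by 4 of 25 promoters of ATF4-pathway factors, kinases and feedback genes and by 4 of 33 promoters of amino acid targets of ATF4. A match is a run of letters and was not tested as a binding site.

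GDF15, a hormone of the TGF-beta superfamily that signals to the brainstem receptor GFRAL, had 5 probe sets, and 3 of them fell. On the brightest, 11716664_x_at, the DMSO arrays read 8.96, 8.96 and 8.91 and the AAPK arrays 8.36, 8.37 and 8.38. The groups were far apart there relative to their spread, with a gap of 0.54 between the lowest DMSO and the highest AAPK array. The fall was 1.49-fold (log2 difference -0.57 ± 0.05 SE, n = 3 per group, limma adjusted p = 3.65e-05). On the second, 11716665_s_at, the values were 7.80, 7.71 and 7.85 in DMSO and 6.62, 6.72 and 6.29 in AAPK, a fall of 2.36-fold (-1.24 ± 0.10, adjusted p = 3.14e-05). On the third, 11716663_a_at, they were 7.58, 7.30 and 7.56 against 6.44, 6.57 and 6.48, a fall of 1.98-fold (-0.98 ± 0.07, adjusted p = 2.82e-05). These 3 probe sets separated the groups completely.

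The other GDF15 probe sets did not pass. On 11757729_s_at the arrays read 6.96, 6.93 and 6.83 in DMSO and 6.87, 6.74 and 6.93 in AAPK, so the groups overlapped, and the log2 difference was -0.06 (95% interval -0.20 to 0.08, limma adjusted p = 0.617). On 11757730_x_at they read 6.01, 5.84 and 5.83 against 5.77, 5.55 and 5.72, with no overlap but a difference of only -0.21 (interval -0.37 to -0.06, adjusted p = 0.0814). In Affymetrix naming, the suffixes _x and _s mark probe sets that may also read similar transcripts. The brightest and second GDF15 sets carry them too, and only the third, 11716663_a_at (-0.98), does not. The interval of the fourth probe set lies wholly above those of the first 3, so the sets of GDF15 do not give 1 size of fall. Which probe sets read GDF15 transcript alone was not tested.

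The size of the fall can be set side by side within an array. The brightest GDF15 probe set exceeded the second by 1.16 log2 units on average in DMSO and by 1.83 in AAPK, a change of 0.67, and it exceeded the fourth by 2.04 and 1.52, a change of -0.51. Neither of these within-array differences overlapped between groups (two-sided exact permutation p = 0.1 for each, the smallest that 3 arrays against 3 allow). Of 8 such pairs over the 4 genes with several probe sets, 7 did not overlap between groups. The share of such pairs over all genes was not counted, and pairs of the same gene share its brightest set. With 3 arrays against 3 no pair could pass the threshold (exact permutation p = 0.1 or 0.2, and 0.114 or 0.2 adjusted over the 8 pairs).

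FGF21, a fibroblast growth factor that acts as a hormone on liver, fat and brain through the co-receptor KLB, had 1 probe set, 11735831_at, and fell by a small amount. The DMSO arrays read 6.82, 6.83 and 6.58 and the AAPK arrays 6.37, 6.42 and 6.55. DMSO replicate 3 lay just above AAPK replicate 3, at a gap of 0.035, so the groups were separate by a margin smaller than the SD of 0.14 in DMSO. The log2 difference was -0.30 ± 0.07 (limma adjusted p = 0.0255), 1.23-fold lower. The call was lost without DMSO replicate 1 (-0.26, adjusted p = 0.1002), DMSO replicate 2 (-0.25, 0.0924), AAPK replicate 1 (-0.26, 0.0973) or AAPK replicate 2 (-0.28, 0.0816). It was also lost with the replicate block (-0.30, adjusted p = 0.0603). Over all 14 alternatives its adjusted p ran from 0.0063 to 0.1002.

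ADM2, also called intermedin, a peptide of the calcitonin family that acts on vessels through CALCRL with a RAMP partner, gave a different answer on each of its probe sets. On the brighter, 11753644_a_at, the arrays read 8.69, 8.76 and 8.65 in DMSO and 8.62, 8.66 and 8.77 in AAPK. The groups overlapped, and the log2 difference was -0.01 with a 95% interval of -0.13 to 0.11 (limma adjusted p = 0.947). On the other, 11730578_at, they read 7.31, 7.20 and 7.07 against 6.77, 6.78 and 6.84, which did not overlap. It fell 1.31-fold (-0.39 ± 0.06, interval -0.54 to -0.25, adjusted p = 0.00245). The brighter set exceeded the other by 1.50 log2 units in DMSO and 1.89 in AAPK, with no overlap of the arrays (two-sided exact permutation p = 0.1, the smallest possible). With the mean of both sets ADM2 was at -0.20 and was called (adjusted p = 0.0181 over all genes; 0.00238 to 0.9947 over its 16 alternatives).

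STC2, stanniocalcin 2, a secreted glycoprotein that inhibits the protease PAPP-A and so restrains IGF release, had the largest fall of the 7 genes. On its brightest probe set, 11721435_at, the DMSO arrays read 8.22, 8.13 and 8.35 and the AAPK arrays 6.96, 6.94 and 6.92. Its AAPK arrays agreed within 0.04 of each other, and the gap to the DMSO arrays was 1.17. It fell 2.45-fold (-1.29 ± 0.06, limma adjusted p = 1.39e-06), the ninth of 18132 genes in order from the lowest difference. The second probe set, 11721436_a_at, read 7.22, 7.23 and 7.11 against 5.98, 6.17 and 6.30 and fell 2.05-fold (-1.04 ± 0.08, adjusted p = 2.46e-05). The third, 11721437_a_at, read 6.76, 7.04 and 6.91 against 6.18, 6.19 and 6.36 and fell 1.58-fold (-0.66 ± 0.08, adjusted p = 3.73e-04). All 3 STC2 probe sets thus fell with no overlap, by sizes that ranged from -1.29 to -0.66. STC1, the paralog of STC2, named after its value was seen, was at 0.02 (adjusted p = 0.875 over all genes), and its 4 probe sets ran from 0.02 to 0.06.

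VLDLR, a cell surface receptor that takes up lipoproteins and binds reelin, had the smallest called change. Its single probe set, 11721181_a_at, read 7.93, 7.85 and 7.98 in DMSO and 7.66, 7.67 and 7.80 in AAPK. AAPK replicate 3 came within 0.047 of the lowest DMSO array. The fall was 1.15-fold (-0.21 ± 0.06, limma adjusted p = 0.0393). The call was lost without DMSO replicate 1 (-0.20, adjusted p = 0.121), DMSO replicate 3 (-0.18, 0.122), AAPK replicate 1 (-0.18, 0.137) or AAPK replicate 2 (-0.19, 0.126), and with arrays centred on their median (-0.19, 0.0613). Over all 14 alternatives its adjusted p ran from 0.0125 to 0.137.

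NUPR1, a small nuclear protein first known from injured pancreas that binds chromatin regulators under stress, fell with little spread between arrays. Its probe set, 11716937_a_at, read 9.73, 9.67 and 9.74 in DMSO and 8.68, 8.70 and 8.63 in AAPK. The arrays of each group agreed within 0.08, and the gap between the groups was 0.96. It fell 2.06-fold (-1.04 ± 0.05, limma adjusted p = 1.30e-06), the 18th of 18132 genes from the lowest difference. Its paralog NUPR2, also named after its value was seen, did not pass (-0.08, adjusted p = 0.389).

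CHAC1, a gamma-glutamylcyclotransferase that splits glutathione in the cytosol, fell on both of its probe sets. On 11722407_a_at the arrays read 8.58, 8.92 and 8.54 in DMSO and 8.12, 7.85 and 7.79 in AAPK. This was the widest spread within DMSO of any member, an SD of 0.21, with DMSO replicate 2 above the other DMSO arrays. It fell 1.69-fold (-0.76 ± 0.11, limma adjusted p = 0.00135). On 11742287_a_at they read 7.40, 7.69 and 7.49 against 6.63, 6.38 and 6.51, again with DMSO replicate 2 the highest, and the fall was 2.02-fold (-1.02 ± 0.08, adjusted p = 4.17e-05). CHAC2, the paralog that degrades glutathione slowly, fell as well, 1.33-fold (-0.41 ± 0.06, adjusted p = 0.00182 over all genes).

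**Figure D2:**
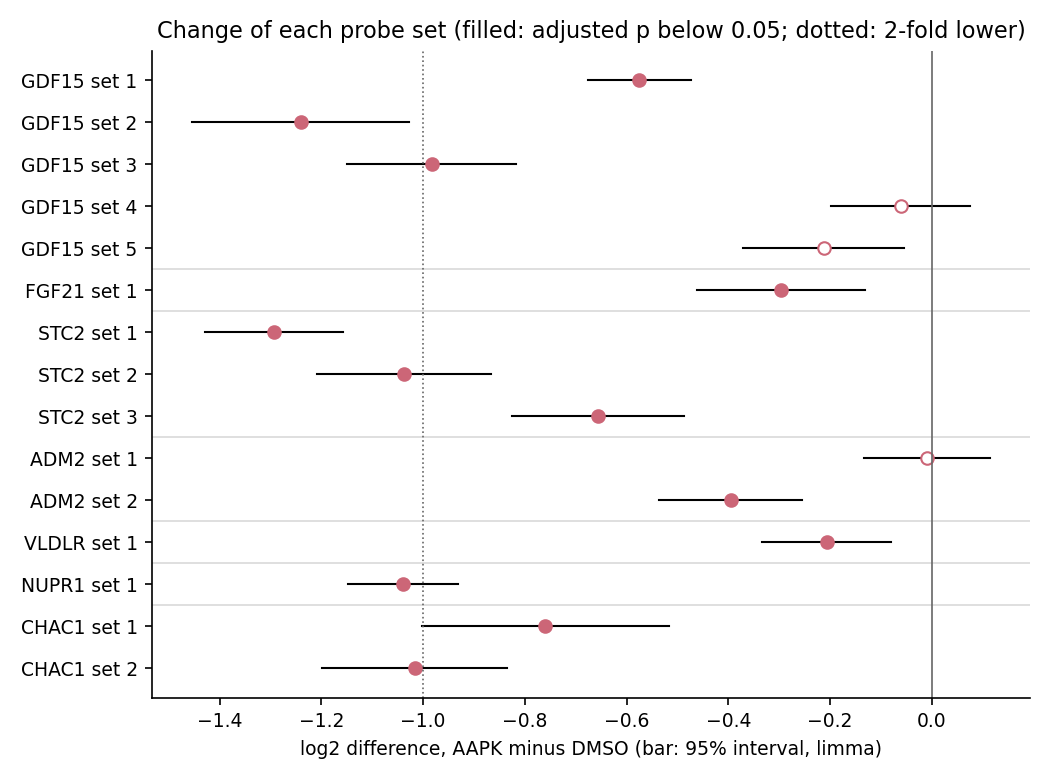
Log2 difference, AAPK minus DMSO (x axis), of each of the 15 probe sets (rows) with its 95% interval from limma; filled points have an adjusted p below 0.05 over 44988 probe sets and the dotted line marks a 2-fold fall. The point estimates of 5 probe sets, from GDF15, STC2, NUPR1 and CHAC1, lie at or below that line, and 3 points are open, 2 of GDF15 and 1 of ADM2.

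In order of the log2 difference on the brightest probe set, the genes ran STC2 (-1.29), NUPR1 (-1.04), CHAC1 (-0.76), GDF15 (-0.57), FGF21 (-0.30), VLDLR (-0.21) and ADM2 (-0.01). Neighbours in this order were not tested against each other, and the 95% intervals of NUPR1 and CHAC1, of CHAC1 and GDF15, of FGF21 and VLDLR, and of VLDLR and ADM2 overlapped. The place of GDF15 depends on the probe set, since its second set was at -1.24, beside -1.29 on the brightest of STC2. In all, 5 of the 15 probe sets were at least 2-fold lower, against 0.0956% of all probe sets called and lower by that much. Differences of log2 signal between probe sets also carry how each set responds to its transcript, which the arrays do not calibrate.

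Of 15 measured factors, kinases and feedback genes of the pathway, 8 were lower, 1 higher and 6 not called by limma, with a median log2 difference of -0.21 against -0.02 over all genes. The shares called over all genes were 7.26% lower and 8.11% higher. The gene called higher was EIF2AK2, an eIF2 kinase (0.20, adjusted p = 0.0126), named after its value was seen; the call was lost without AAPK replicate 1 (0.19, adjusted p = 0.0519; 0.0016 to 0.0519 over its 16 alternatives). DDIT3, which encodes CHOP, read 10.64, 10.60 and 10.50 in DMSO and 8.39, 8.28 and 8.37 in AAPK, 4.71-fold lower (-2.23 ± 0.05, adjusted p = 1.88e-08), beside -1.29 for STC2, the lowest of the 7 genes. TRIB3, a pseudokinase that is a target and a brake of the pathway, fell by 1.67 ± 0.05 (adjusted p = 3.74e-08). ATF4, named here after its value was seen, fell 1.47-fold at the transcript level (-0.55 ± 0.05, adjusted p = 3.64e-05), beside -0.57 for GDF15. ATF4 is controlled mainly in translation, which the arrays do not read. Of 28 measured amino acid targets of ATF4, 23 were lower and 1 higher, with a median of -0.49, beside -0.57 for the 7 hormone and effector genes. SESN2, a leucine sensor, fell by 1.33 and DDIT4, an inhibitor of mTORC1 signalling, by 1.12 (adjusted p = 2.53e-07 and 5.04e-07).

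**Figure D3:**
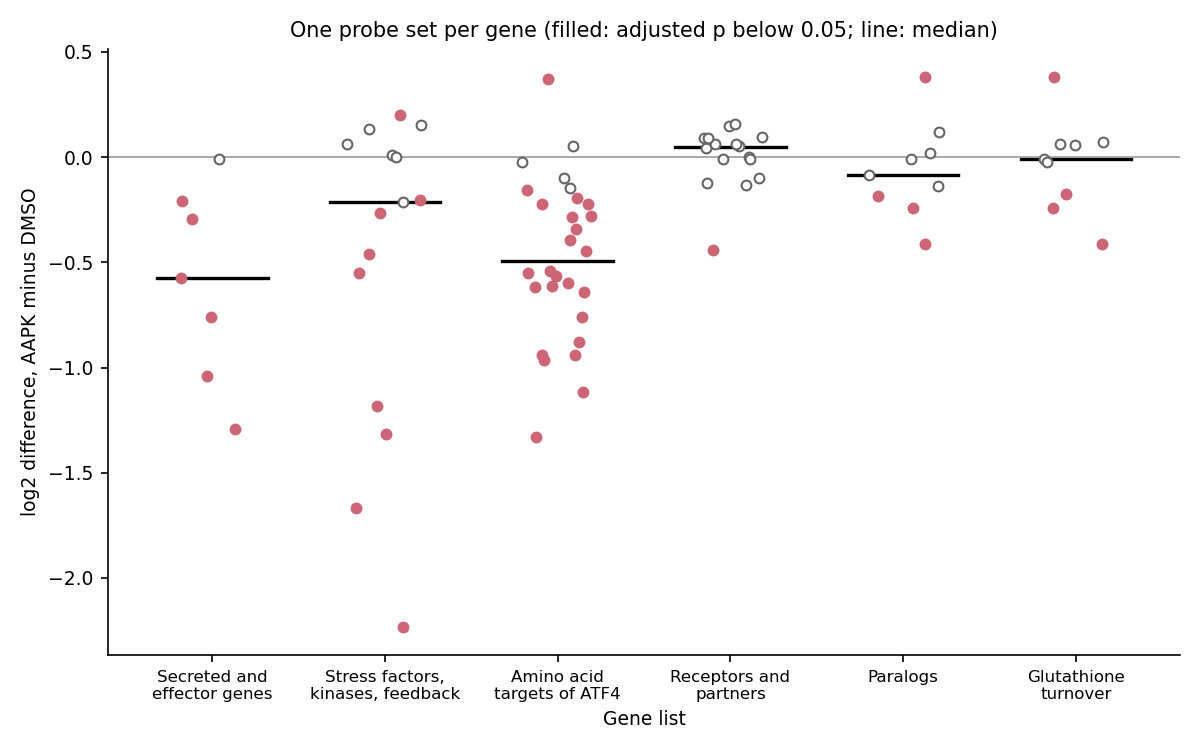
Log2 difference, AAPK minus DMSO (y axis), of every measured gene in 6 lists (x axis), on the brightest probe set of each gene; filled points have an adjusted p below 0.05 and black bars are list medians. The 7 hormone and effector genes lie within the range of the stress factors and of the amino acid targets, while the receptor list has 1 filled point, FGFR2.

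Receptors and partners listed for GDF15, FGF21, ADM2 and VLDLR were measured in the same cells. The list held none for STC2. Of 16 genes, 1 was lower and 0 higher by limma (2 and 2 at an unadjusted p under 0.05). Over all 18132 genes, 7.26% were called lower and 8.11% higher. The gene that fell was FGFR2, a fibroblast growth factor receptor, at -0.44 ± 0.05 (adjusted p = 3.40e-04); 9 of its 12 probe sets shared its sign, from -0.55 to 0.07, and their mean was at -0.15 (adjusted p = 0.0259). GFRAL, KLB and RET, chosen after their values were seen, lay at the 2.18, 10.7 and 5.71 percentile of gene signal, among the dimmest genes of the arrays.

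Paralogs of the members moved less uniformly. Of 9 measured, 3 were lower and 1 higher, against 7.26% and 8.11% of all 18132 genes, with a median of -0.08. CHAC2 led the falls, and LRP8, a reelin receptor of the same family as VLDLR, rose 1.30-fold (0.38 ± 0.07, adjusted p = 0.00555), opposite in sign to VLDLR. Among 9 genes of glutathione synthesis and turnover other than CHAC1, 3 were lower, CHAC2 among them, and 1 higher, with a median of -0.01. The same shares over all genes stand beside these counts. The one that rose was GCLM, the modifier subunit of the enzyme that starts glutathione synthesis (0.38 ± 0.06, adjusted p = 0.00178), with 0.12 on its other probe set and 0.25 for their mean.

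Profiles over the 6 arrays were compared by Pearson correlation with each of 9066 genes brighter than the median gene. The closest were PRIM1 and OLR1 for GDF15 (r = 0.9995 and 0.9994), DTL and ZNF770 for STC2 (0.9997 and 0.9996), CARS1 and ASNS for NUPR1 (0.9995 and 0.9993), GTF2H1 and SCMH1 for CHAC1 (0.9972 and 0.9957), MRPL1 and IMMP2L for VLDLR (0.9972 and 0.9905), PROZ and TF for FGF21 (0.9938 and 0.9925) and CIDEC and CPNE7 for ADM2 (0.987 and 0.9864). CARS1, a tRNA synthetase gene, and ASNS, asparagine synthetase, were lower by similar amounts to NUPR1, at -0.99 and -0.94. PRIM1 and OLR1 were at -0.68 and -0.66, beside -0.57 for GDF15. MRPL1 and IMMP2L were at -0.24 and -0.19, beside -0.21 for VLDLR. DTL and ZNF770 were at -1.01 and -0.64, beside -1.29 for STC2. GTF2H1 and SCMH1 were at -0.17 and -0.11, beside -0.76 for CHAC1. PROZ and TF were at -0.16 and -0.07, beside -0.30 for FGF21. CIDEC and CPNE7 were at -0.01 and 0.003, beside -0.01 for ADM2. With 6 arrays in 2 groups, such an r can largely record the step between DMSO and AAPK, and how far it does so was not measured. For ADM2 the groups overlapped. Among the partners of the other members, PROZ, TF and SCMH1 were not called (limma adjusted p = 0.0536, 0.37 and 0.129 over all genes). Between the members themselves r ran from 0.02 to 0.9973 over 21 pairs.

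**Figure D4:**
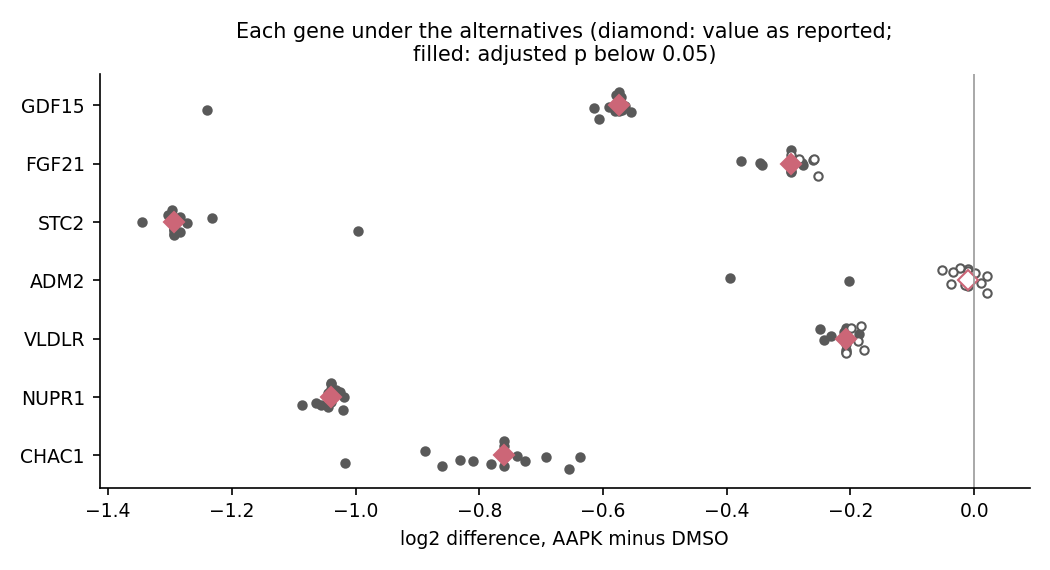
Log2 difference of each gene (rows) as reported (diamonds) and under up to 16 alternative settings (circles); filled symbols have an adjusted p below 0.05 over all genes of that setting. STC2, NUPR1, CHAC1 and GDF15 stay filled throughout, FGF21 and VLDLR have open circles, and ADM2 is filled with the mean of its probe sets and with the set of largest spread.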

How the data were processed

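The deposited table holds log2 signal for 49395 probe sets on 6 arrays; per the labels' protocols, Trizol RNA was labelled with biotin by in vitro transcription. The scale is read from the values (2.83 to 14.25). The nearly equal quartiles would follow if the authors had made the arrays comparable, which the values alone do not show. How they corrected background, normalised and summarised probes is not given in the sources used here, and changes shared by most genes would not be seen.

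Probe sets were named from the platform table: 44988 name 1 symbol, 1832 several, 2473 none and 102 are controls. All single-symbol probe sets were fitted with limma 3.58.1 in R 4.3.3 (lmFit, eBayes, group only, two-sided, Benjamini-Hochberg over 44988, threshold 0.05); a second fit used the brightest probe set of each of 18132 genes. A p for a member is from the first fit; a p for another gene, or one said to be over all genes, is from the second. Both fits were run on simulated data with independent noise and planted changes, which does not cover dependence between arrays. Groups and replicate numbers are from the titles. The labels name no separate cultures, so p-values measure only how far these samples, possibly technical repeats, differ; 3 arrays per group limit precision.

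The members and lists were chosen with earlier results of these data known, and the lists were not tested as sets. All probe sets of the 7 genes are named; from each list the 2 genes with the largest change past the threshold, and per member the 2 most correlated genes. Other genes are marked as named after their values were seen. The alternatives were other scalings, signal filters, moderation, array weights, other choices of probe set, each array left out, and replicate number as a block.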

Additional observations from a re-analysis of the deposited data

How the results depend on the processing

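Under the 16 alternatives GDF15, STC2, NUPR1 and CHAC1 kept their direction and their call, with log2 differences of -1.24 to -0.55, -1.35 to -0.995, -1.09 to -1.02 and -1.02 to -0.64. FGF21 ran from -0.38 to -0.25 and VLDLR from -0.25 to -0.18, each losing its call under 5 alternatives. FGF21 was not tested when genes below the median signal were left out, since it is one of them. VLDLR kept its value of -0.21 but not its call (adjusted p = 0.0507) when each gene was represented by its probe set with the largest spread. The GDF15 probe set 11757730_x_at was called only with array weights (-0.23, adjusted p = 0.0488; up to 0.269 over the others). Leaving out 1 array gave 4 to 6 called member genes and 10 to 12 called member probe sets, and 1921 to 2450 called genes against 2788.

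The replicate numbers did not pair the arrays: the deviations of same-numbered arrays correlated at -0.02, -0.23 and -0.05 over 18132 genes, and no AAPK array correlated best with the DMSO array of its number. With replicate as a block, 2099 genes and 5 of 7 member genes were called; FGF21 was lost (adjusted p = 0.0575 over all genes). Median centring gave 1700 genes higher and 1073 lower against 1471 and 1317. The paralog and glutathione lists had 1 to 3 genes called lower over the alternatives against 3. For the 39 other named genes, 33 of 610 alternative values lost a call, 8 gained one and 0 reversed. The causes were not tested. How far low signal compresses a change is not known for these probe sets.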

Other observations

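Some of the 7 genes are known to answer other stimuli as well, GDF15 to p53 and VLDLR and STC2 to low oxygen. Whether either response bears on their falls was not tested. Of 11 measured hypoxia targets 7 were higher and 1 lower by limma, with a median log2 difference of 0.22. NDRG1, a gene induced by low oxygen, rose 1.85-fold (0.89 ± 0.06, adjusted p = 1.12e-05), while VEGFA, a vessel growth factor, fell 1.72-fold (-0.78 ± 0.04, adjusted p = 3.03e-06) with all 10 of its probe sets below 0 and a value of -0.44 when they were averaged. Of 15 p53 targets 2 were higher and 4 lower, with a median of -0.02. Over all genes, 8.11% were called higher and 7.26% lower. XPC, a DNA damage sensor, fell by 0.37 ± 0.05 (adjusted p = 9.77e-04) and BBC3, the BH3-only protein PUMA, by 0.37 ± 0.10 (adjusted p = 0.0291), a call lost without DMSO replicate 3, AAPK replicate 2 or AAPK replicate 3 (adjusted p = 0.068, 0.106 and 0.0678; 0.00799 to 0.106 over its 16 alternatives); with its probe sets averaged, BBC3 was at -0.21.

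Targets of the unfolded protein response, which shares the kinase PERK with the ATF4 pathway, went both ways, 5 higher and 3 lower of 15, with a median of 0.08. The shares over all genes were 8.11% higher and 7.26% lower. MANF, a secreted factor of stressed endoplasmic reticulum, rose 1.42-fold (0.50 ± 0.05, adjusted p = 8.78e-05). HERPUD1, a membrane protein of the degradation machinery, fell 1.88-fold (-0.91 ± 0.05, adjusted p = 3.03e-06) with all 4 of its probe sets below 0. The signs of these genes were read on the same 6 arrays as those of the members.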
